A study of Saccharomyces cerevisiae with 10 samples.

Results

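The genes described here are 10 members of the iron regulon of budding yeast (Saccharomyces cerevisiae): FRE2 (YKL220C), FET3 (YMR058W), FTR1 (YER145C), FIT1 (YDR534C), FIT2 (YOR382W), FIT3 (YOR383C), ARN1 (YHL040C), SIT1 (YEL065W), HMX1 (YLR205C) and MRS4 (YKR052C). They were chosen by name as known genes of iron uptake and iron use, with earlier results of these data known. Each has a row among the 5897 protein-coding genes and 10891 features of the deposited table. RNA sequencing of rRNA-depleted total RNA was done in 5 groups of 2 biological replicates, all MATa cells grown to mid-log phase in YPD, a rich medium. The xrn1 group was BY4741 carrying xrn1Δ::kanMX4. The dbp2 group, also labelled BY4741, carried dbp2Δ::KanMX6 with his3Δ0, leu2Δ0, ura3Δ0 and met-, and its lysine marker is written as uncertain. WT was BY4741 with his3Δ1, leu2Δ0, met15Δ0 and ura3Δ0, markers that the xrn1 cells share. The tet-MTR4-Dox group was BMA64-1A with MTR4 under a kanMX6-tetOFF promoter, which doxycycline switches off, and WT-Dox was BMA64-1A without that promoter. Both BMA64-1A groups carried ura3-1, trp1Δ2, can1-100 and ade2-1 together with mutant HIS3 and LEU2 genes, and both received 10 µg/mL doxycycline for 6 h. Xrn1 is the main cytoplasmic exonuclease that degrades RNA from its 5′ end, Dbp2 is a DEAD-box RNA helicase, and Mtr4 is the RNA helicase that works with the exosome in the nucleus.

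When iron is short, yeast cells switch on the iron regulon through the transcription factors Aft1 and Aft2, which bind a short element in the promoters of the target genes. Reductases at the cell surface reduce ferric iron, the Fet3 oxidase and Ftr1 permease take up ferrous iron together, and mannoproteins of the cell wall and transporters of the ARN family serve uptake of iron bound to siderophores. Inside the cell, Hmx1 releases iron from heme and Mrs4 carries iron into mitochondria.

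The promoter element is shown for the members because Aft1 and Aft2 bind it, and because the members did not change alike. The 500 bases before each start codon in the RefSeq annotation of R64 were searched on both strands for the 7-base motif TGCACCC and its 6-base core GCACCC, so each match to the 7-base motif also holds the core. The 7-base motif lay in the windows of 9 of the 10 members, against 139 of 5895 annotated protein-coding genes (2.36%). The core lay in all 10, against 456 of 5895 genes (7.74%), and 5 members held it more than once, against 0.696% of genes. One 7-base match is printed below for each of the 9 genes, 5′ to 3′ on the strand of the gene, with the motif in capitals. GGGTGCA is the same motif read from the other strand.
FRE2, chrXI:11640-11666, minus strand: tattcgtaatTGCACCCaggtcttttt
FET3, chrXIII:388561-388587, plus strand: tcttcaaaagTGCACCCatttgcaggt
FTR1, chrV:461899-461925, minus strand: cgtagatgaaTGCACCCgatttctaag
FIT1, chrIV:1505066-1505092, minus strand: ttctaggaaaGGGTGCAaaaaaatgaa
FIT2, chrXV:1059255-1059281, plus strand: tttaaaacaaTGCACCCtaagttcaaa
FIT3, chrXV:1061223-1061249, minus strand: ttctaggaaaGGGTGCAaaaaaatggg
ARN1, chrVIII:21215-21241, minus strand: tttatcaaaaTGCACCCataaaagcag
SIT1, chrV:27459-27485, plus strand: acacatttgaGGGTGCAatctggttcg
HMX1, chrXII:554112-554138, minus strand: taacaggtgcGGGTGCAagtttactag

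FIT2 held 4 matches to the 7-base motif, between 331 and 131 bases before its start codon, and FTR1, FIT1 and FIT3 held 2 each. The FIT1 and FIT3 matches printed above share all but the last bases of their flanks, and they lie 182 and 184 bases before the start codons. The FIT3 matches also lie upstream of FRE5, a putative reductase gene that starts 508 bases away on the other strand. MRS4 held the 6-base core once and no 7-base match. FET3 and FTR1, which fell relative to other genes in all 3 mutants, and FRE2, FIT1 and HMX1, which rose in all 3, each held the 7-base motif.

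**Figure D1:**
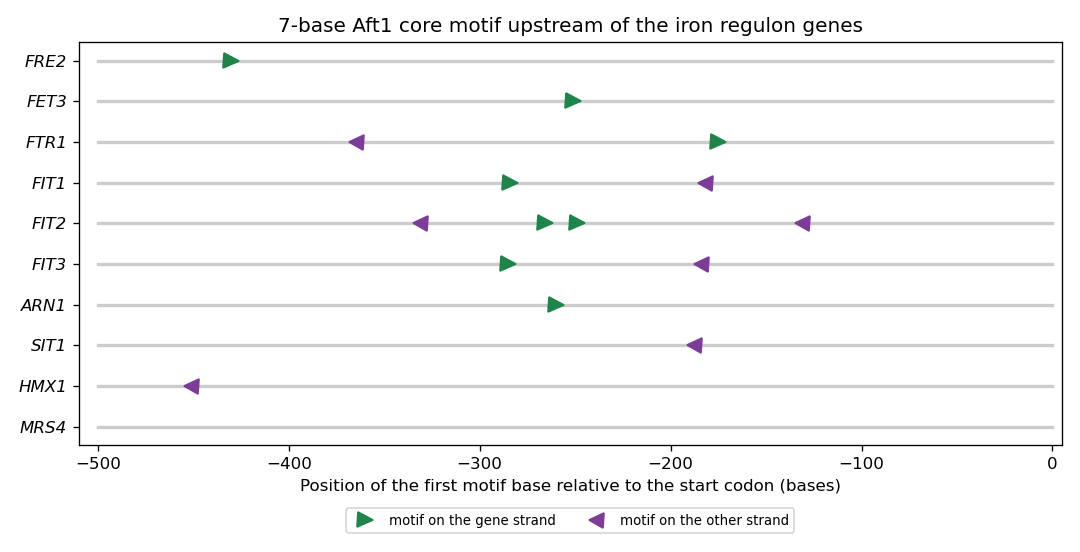
Matches to the 7-base motif in the 500 bases before the start codon of each gene; the x axis gives the first motif base in bases from the start codon, and arrowheads mark the strand of the motif. FIT2 has 4 matches, FTR1, FIT1 and FIT3 have 2 each, and MRS4 has none.

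Levels are the authors' normalized densities, which are reads per base of the feature times a factor per library, in arbitrary units. These factors ran nearly inverse to the number of reads from ERCC spike-ins, which are added control RNAs. Over all rows together, the values give back between 16.0 M and 33.5 M reads in each library. The labels held for the targeted genes: XRN1 density was 0.102 and 0.106 in xrn1 cells against 2.49 and 2.28 in WT, DBP2 was 0.00313 and 0.00326 in dbp2 cells against 3.49 and 3.41 in WT, and MTR4 was 0.429 and 0.469 in tet-MTR4-Dox cells against 1.49 and 1.30 in WT-Dox. Nearly the whole transcriptome moved on the deposited scale. The median change of the 5613 protein-coding genes tested was 1.90 on the log2 scale in xrn1 against WT, 0.81 in dbp2 against WT, 0.84 in tet-MTR4-Dox against WT-Dox and -0.15 in WT-Dox against WT. Each change is therefore given both on the deposited scale and relative to the median protein-coding gene of its library, called the relative scale. The xrn1 and dbp2 comparisons share the WT libraries. The markers labelled for the dbp2 strain differ from those of WT and xrn1. In comparisons with dbp2 cells, these markers and the loss of Dbp2 cannot be told apart. Tests are limma fits over all features with Benjamini-Hochberg adjustment, and a gene is called at an adjusted p under 0.05; with 2 libraries a group, every SE draws on the replicate spread of all 5 groups, and p-values cover only the spread between these cultures. In bulk RNA, a change in the share of cells that express a gene cannot be told apart from a change per cell.

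All 10 genes were, on the deposited scale, called higher in xrn1 cells and none lower, where 98.3% of protein-coding genes were called higher and 0.356% lower. In dbp2 cells 8 were called higher and 2 lower (background 83.9% and 7.86%), and in tet-MTR4-Dox cells 7 were higher and 3 lower (background 86.6% and 5.47%). On the relative scale 6 were higher and 4 lower in xrn1 cells (background 34.2% and 48.3%), 5 higher and 4 lower in dbp2 cells (37.9% and 42.1%), and 6 higher and 4 lower in tet-MTR4-Dox cells (39.6% and 40.9%). The median relative change of the 10 was 0.40, 0.32 and 0.31 on the log2 scale in xrn1, dbp2 and tet-MTR4-Dox cells, beside -0.13, -0.03 and 0.00 for all protein-coding genes. Apart from ARN1 in dbp2 cells every member was called on the relative scale, and the 10 genes split in each mutant. The sum of the 10 densities was 28.4 and 26.9 in xrn1 cells and 10.7 and 9.86 in dbp2 cells, against 11.7 and 10.9 in WT. It was 9.52 and 10.3 in tet-MTR4-Dox cells against 9.92 and 9.27 in WT-Dox. In dbp2 and tet-MTR4-Dox cells FET3 and FTR1 were lower than in their wild types on this scale while most other members were higher, and the sum lay near the wild-type value.

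The direction of a small relative change depends on what the libraries are scaled to. Scaling on the sum of protein-coding densities in place of the median gene moved every relative change up by 1.00 on the log2 scale in xrn1, 0.49 in dbp2 and 0.56 in tet-MTR4-Dox, and scaling on the median of all features, noncoding RNAs included, moved it by -0.24, -0.25 and -0.87. The 4 ways of scaling used the median gene, the sum, the median of all features, and the median log ratio of protein-coding genes. The deposited scale is not among these 4. Under all 4 of them, FRE2, FIT1 and HMX1 were called higher and FET3 and FTR1 lower in all 3 mutants. MRS4 was also called higher under all 4 in xrn1 cells, FIT3 higher in xrn1 and dbp2 cells, FIT2 higher in dbp2 cells, and SIT1 lower in tet-MTR4-Dox cells. The other directions below carry the scaling under which they end or turn.

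**Figure D2:**
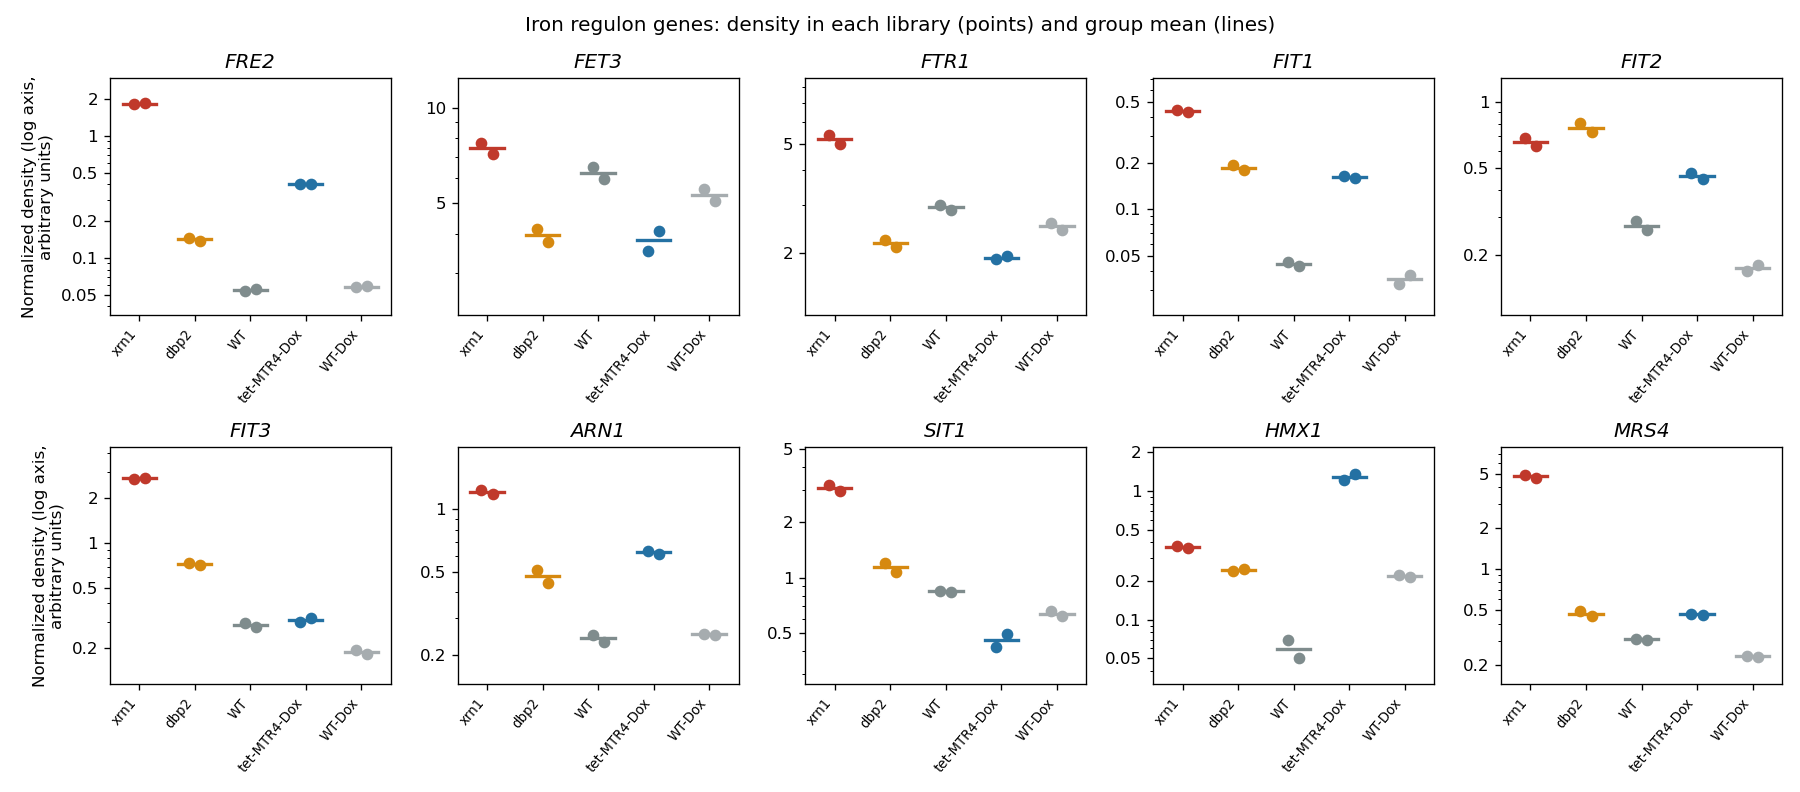
Density of each gene in each library (points) with the group mean (lines), on a log axis in arbitrary units, for xrn1, dbp2, WT, tet-MTR4-Dox and WT-Dox. Every gene but FIT2 and HMX1 stands highest in xrn1 cells, FIT2 stands highest in dbp2 cells, HMX1 stands highest in tet-MTR4-Dox cells, and FET3 differs least between groups.

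FRE2, a ferric reductase of the plasma membrane, made the largest change among the members in xrn1 and tet-MTR4-Dox cells on either scale. Its density was 1.83 and 1.85 in xrn1 cells and 0.146 and 0.137 in dbp2 cells, against 0.0540 and 0.0551 in WT. It was 0.400 and 0.406 in tet-MTR4-Dox cells against 0.0576 and 0.0587 in WT-Dox. All mutant libraries lay above all wild-type libraries, and the WT libraries held only 280 and 375 reads of this gene. FRE2 on the deposited scale was 30.4-fold higher in xrn1 cells, 2.44-fold higher in dbp2 cells and 6.35-fold higher in tet-MTR4-Dox cells. The relative log2 change was 2.92 ± 0.07 (SE) in xrn1 cells (limma adjusted p = 3.7e-09), 0.50 ± 0.07 in dbp2 cells (limma adjusted p = 0.00028) and 1.88 ± 0.07 in tet-MTR4-Dox cells (limma adjusted p = 3.4e-08). Among 5613 protein-coding genes ordered by density, FRE2 stood at rank 2577 in xrn1 cells and 5226 in dbp2 cells against 5188 in WT, and at 3889 in tet-MTR4-Dox cells against 5115 in WT-Dox. The coding sequence (chromosome XI, 9091 to 11226, minus strand, R64) is 2136 bases long, but the row behind the density spans 4808 bases, 2672 more, where the median excess over all protein-coding rows is 188 bases and the 99th percentile 1332. Reads from those further bases enter its value, and their bounds are not given in the sources used here. Its closest annotated gene is FRE3, with 77.5% identity over 2114 bases and a longest shared run of 34 bases; how reads that match both were counted is not given in the sources used here.

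FET3, the multicopper oxidase, and FTR1, the permease that works with it, were the most abundant members. FET3 density was 7.73 and 7.14 in xrn1 cells and 4.15 and 3.76 in dbp2 cells, against 6.48 and 5.96 in WT. It was 3.53 and 4.09 in tet-MTR4-Dox cells against 5.52 and 5.08 in WT-Dox. The dbp2 and tet-MTR4-Dox libraries lay below their wild types and overlapped each other. FET3 was called 1.19-fold higher in xrn1 cells on the deposited scale (limma adjusted p = 0.014), a call that ended when WT replicate 2 was left out (limma adjusted p = 0.099) and when xrn1 replicate 1 was (0.091). On the same scale it fell to 0.635 of WT in dbp2 cells and to 0.719 of WT-Dox in tet-MTR4-Dox cells. Set against the median gene of each library, FET3 stood at 4.57 and 4.27 times that gene in xrn1 cells and 5.65 and 5.32 in dbp2 cells, against 15.8 and 15.4 in WT. It stood at 5.47 and 6.25 in tet-MTR4-Dox cells against 14.7 and 14.7 in WT-Dox. The relative log2 change was -1.81 ± 0.06 (SE) in xrn1, -1.50 ± 0.06 in dbp2 and -1.33 ± 0.06 in tet-MTR4-Dox cells, with limma adjusted p of 1.8e-08, 9.3e-08 and 9.1e-08. FET3 lies on chromosome XIII, 388822 to 390732, plus strand.

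FTR1 also fell relative to the median gene in all 3 mutants. Its density was 5.38 and 4.99 in xrn1 cells and 2.24 and 2.12 in dbp2 cells, against 3.01 and 2.86 in WT. It was 1.91 and 1.96 in tet-MTR4-Dox cells against 2.59 and 2.42 in WT-Dox. The xrn1 libraries were above WT, and the libraries of the other 2 mutants were below their wild types, with no overlap. FTR1 was 1.77-fold higher in xrn1 cells on the deposited scale, and fell to 0.743 of WT in dbp2 cells and 0.772 of WT-Dox in tet-MTR4-Dox cells. Relative to the median gene FTR1 changed by -1.25 ± 0.04 (SE, log2) in xrn1, -1.28 ± 0.04 in dbp2 and -1.23 ± 0.04 in tet-MTR4-Dox cells, with limma adjusted p of 6.6e-09, 1.1e-08 and 1.0e-08. How alike these values are depends on the scaling, since they were -0.25, -0.79 and -0.67 with scaling on the sum and -1.49, -1.53 and -2.09 with scaling on the median of all features. FTR1 lies on chromosome V, 460526 to 461740, minus strand.

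FIT1, FIT2 and FIT3 encode mannoproteins of the cell wall that help retain siderophore iron, and all were called higher in all 3 mutants on the deposited scale. FIT1 density was 0.444 and 0.428 in xrn1 cells and 0.193 and 0.181 in dbp2 cells, against 0.0455 and 0.0427 in WT. It was 0.165 and 0.161 in tet-MTR4-Dox cells against 0.0327 and 0.0376 in WT-Dox. FIT1 was among the least expressed members in both wild types, with 51 to 96 reads per wild-type library, and no mutant library overlapped them. Its density was, on the deposited scale, 8.78-fold higher in xrn1 cells, 3.84-fold higher in dbp2 cells and 4.09-fold higher in tet-MTR4-Dox cells. Its relative log2 change was 1.16 ± 0.11 (SE) in xrn1, 1.17 ± 0.11 in dbp2 and 1.28 ± 0.11 in tet-MTR4-Dox cells, with limma adjusted p of 9.9e-06, 1.4e-05 and 3.3e-06. FIT1 lies on chromosome IV, 1503314 to 1504900, minus strand, and shares 74.0% identity with FIT3 over 404 bases.

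FIT2 density was 0.686 and 0.633 in xrn1 cells and 0.805 and 0.729 in dbp2 cells, against 0.287 and 0.260 in WT. It was 0.475 and 0.449 in tet-MTR4-Dox cells against 0.170 and 0.182 in WT-Dox. FIT2 was the only member with its highest density in dbp2 cells. It was 2.38-fold higher in xrn1, 2.76-fold higher in dbp2 and 2.57-fold higher in tet-MTR4-Dox cells on the deposited scale. Its relative log2 change was -0.79 ± 0.08 (SE) in xrn1 cells (limma adjusted p = 1.6e-05), a direction that turned to 0.19 when libraries were scaled on the sum of protein-coding densities. The relative change was 0.63 ± 0.08 in dbp2 cells (limma adjusted p = 9.5e-05) and 0.53 ± 0.08 in tet-MTR4-Dox cells (limma adjusted p = 0.00017), where scaling on the median of all features turned it to -0.32.

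FIT3 density was 2.69 and 2.73 in xrn1 cells and 0.736 and 0.716 in dbp2 cells, against 0.295 and 0.275 in WT. It was 0.300 and 0.318 in tet-MTR4-Dox cells against 0.194 and 0.183 in WT-Dox. FIT3 was 9.32-fold higher in xrn1, 2.52-fold higher in dbp2 and 1.62-fold higher in tet-MTR4-Dox cells on the deposited scale. The relative log2 change was 1.16 ± 0.04 (SE) in xrn1 cells (limma adjusted p = 2.6e-08) and 0.50 ± 0.04 in dbp2 cells (limma adjusted p = 1.0e-05). In tet-MTR4-Dox cells it was -0.14 ± 0.04 (limma adjusted p = 0.015), a call that ended when WT-Dox replicate 2 (limma adjusted p = 0.062) or tet-MTR4-Dox replicate 1 (0.068) was left out, with limma-voom (0.14) and with only the groups compared (0.16), and that turned to 0.41 with scaling on the sum. FIT2 (chromosome XV, 1059531 to 1059992, plus strand) and FIT3 (1060441 to 1061055, minus strand) are neighbours that face each other across 448 bases. The rows behind their densities are 435 and 258 bases longer than the coding sequences. The bounds of these rows are not given in the sources used here, so whether they overlap is not known. In xrn1 cells, relative to the median gene, FIT3 was called higher and FIT2 lower, the FIT2 direction with the limit on scaling given above; the difference between the neighbours was not tested.

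**Figure D3:**
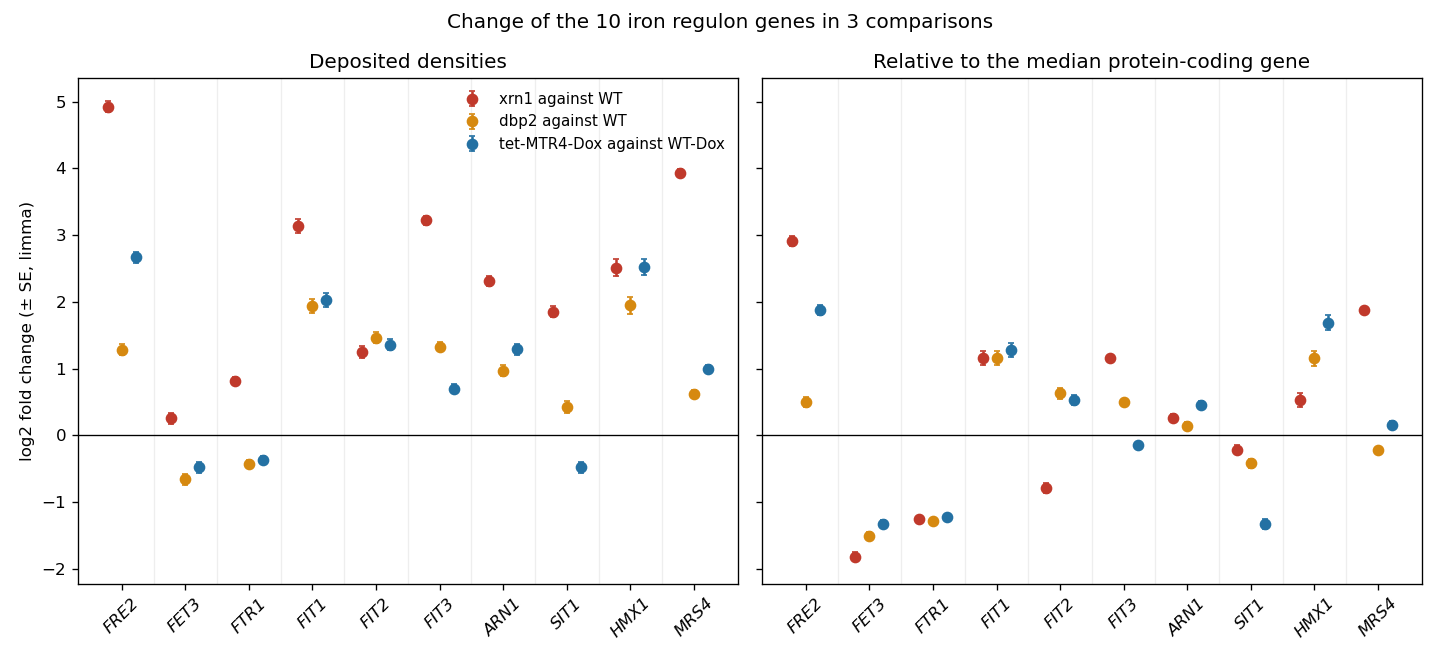
Log2 fold change of the 10 genes with limma SE, in xrn1 against WT, dbp2 against WT and tet-MTR4-Dox against WT-Dox, on the deposited scale (left) and relative to the median protein-coding gene (right). On the right FET3 and FTR1 lie below 0 in all 3 comparisons and FRE2, FIT1 and HMX1 above 0; the smaller changes of SIT1, MRS4, FIT2, FIT3 and ARN1 turn or lose their call in at least 1 mutant under another scaling.

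ARN1 and SIT1 are transporters for iron bound to siderophores. ARN1 density was 1.24 and 1.19 in xrn1 cells and 0.509 and 0.445 in dbp2 cells, against 0.249 and 0.230 in WT. It was 0.633 and 0.613 in tet-MTR4-Dox cells against 0.252 and 0.250 in WT-Dox. The mutant libraries lay above their wild types without overlap, and ARN1 was 4.96-fold higher in xrn1, 1.96-fold higher in dbp2 and 2.45-fold higher in tet-MTR4-Dox cells on the deposited scale. Its relative changes were small. They were 0.26 ± 0.06 (SE, log2) in xrn1 cells (limma adjusted p = 0.0038) and 0.45 ± 0.06 in tet-MTR4-Dox cells (limma adjusted p = 9.6e-05), the second of which turned to -0.40 with scaling on the median of all features, where the first lost its call. In dbp2 cells ARN1 was 0.14 ± 0.06 and did not pass the test (limma adjusted p = 0.067), though it did without dbp2 replicate 2 (limma adjusted p = 0.029). It was called at 0.62 with scaling on the sum (limma adjusted p = 1.2e-05) and at 0.19 on the median log ratio (limma adjusted p = 0.019), and was -0.11 without a call on the median of all features. ARN1 lies on chromosome VIII, 19088 to 20971, minus strand, and its closest annotated gene is ARN2, with 64.4% identity over 1332 bases.

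SIT1 was lower in tet-MTR4-Dox than in WT-Dox cells under all 4 scalings, whereas ARN1 was higher under 3 of them and lower under the other; the difference between the genes was not tested. SIT1 density was 3.19 and 2.95 in xrn1 cells and 1.21 and 1.07 in dbp2 cells, against 0.852 and 0.836 in WT. It was 0.423 and 0.494 in tet-MTR4-Dox cells against 0.661 and 0.619 in WT-Dox. SIT1 was 3.61-fold higher in xrn1 and 1.34-fold higher in dbp2 cells on the deposited scale, and it fell to 0.717 of WT-Dox in tet-MTR4-Dox cells. The relative log2 change in tet-MTR4-Dox cells was -1.33 ± 0.07 (SE, limma adjusted p = 1.7e-07), and SIT1 stood at rank 3622 of 5613 genes by density there against 1845 in WT-Dox. It was -0.42 ± 0.07 in dbp2 cells (limma adjusted p = 0.00064), against 0.07 with scaling on the sum. In xrn1 cells it was -0.21 ± 0.07 (limma adjusted p = 0.022), a call that ended when WT replicate 2 was left out (limma adjusted p = 0.10) and when xrn1 replicate 2 was (0.13), and that turned to 0.79 with scaling on the sum. SIT1 lies on chromosome V, 27657 to 29543, plus strand.

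HMX1, the heme oxygenase, was the member that stood highest in tet-MTR4-Dox cells. Its density was 0.372 and 0.358 in xrn1 cells and 0.240 and 0.249 in dbp2 cells, against 0.0689 and 0.0502 in WT. It was 1.22 and 1.37 in tet-MTR4-Dox cells against 0.224 and 0.214 in WT-Dox. No mutant library overlapped its wild type, and the WT libraries held 116 and 111 reads. HMX1 was 5.71-fold higher in xrn1, 3.85-fold higher in dbp2 and 5.75-fold higher in tet-MTR4-Dox cells on the deposited scale. The relative log2 change was 0.53 ± 0.11 (SE) in xrn1 cells (limma adjusted p = 0.0019), 1.16 ± 0.11 in dbp2 cells (limma adjusted p = 1.7e-05) and 1.69 ± 0.11 in tet-MTR4-Dox cells (limma adjusted p = 6.2e-07). By density it stood at rank 1563 of 5613 genes in tet-MTR4-Dox cells against 3788 in WT-Dox, and at 5154 in xrn1 and 4880 in dbp2 cells against 5153 in WT. HMX1 lies on chromosome XII, 552724 to 553677, minus strand.

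MRS4, the mitochondrial iron carrier, stood highest in xrn1 cells, as did every member but FIT2 and HMX1. Its density was 4.86 and 4.68 in xrn1 cells and 0.490 and 0.457 in dbp2 cells, against 0.310 and 0.301 in WT. It was 0.470 and 0.465 in tet-MTR4-Dox cells against 0.232 and 0.229 in WT-Dox. On the deposited scale MRS4 was 15.3-fold higher in xrn1, 1.54-fold higher in dbp2 and 2.00-fold higher in tet-MTR4-Dox cells. The relative log2 change was 1.88 ± 0.05 (SE) in xrn1 cells (limma adjusted p = 3.6e-09), and MRS4 stood at rank 871 of 5613 genes there against 3342 in WT. It was -0.22 ± 0.05 in dbp2 cells (limma adjusted p = 0.0028), against 0.27 with scaling on the sum. In tet-MTR4-Dox cells it was 0.16 ± 0.05 (limma adjusted p = 0.0093), which turned to -0.69 with scaling on the median of all features and lost its call without WT-Dox replicate 1 (limma adjusted p = 0.063) and with only the groups compared (limma adjusted p = 0.083). MRS4 lies on chromosome XI, 532550 to 533464, minus strand. Its relative MRS3, another mitochondrial iron carrier with 71.6% identity over 824 bases, rose by 0.65 on the relative log2 scale in xrn1 cells and did so under all 4 scalings; it is named for its likeness to MRS4, after its value was seen.

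The xrn1 and dbp2 cells were compared directly, with the limit on the markers of the dbp2 strain given above. On the deposited scale 9 members were higher and 1 lower in xrn1 than in dbp2 cells, where 88.3% of protein-coding genes were higher and 4.95% lower. On the relative scale 4 were higher and 3 lower (background 34.3% and 45.9%). FRE2 was 5.34-fold higher (log2 2.42 ± 0.07) and MRS4 4.27-fold higher (log2 2.09 ± 0.05) in xrn1 than in dbp2 cells relative to the median gene, with limma adjusted p of 1.7e-08 and 5.2e-09. FIT3 was higher by 0.67 ± 0.04 (SE, log2; limma adjusted p = 1.2e-06), and SIT1 by 0.21 ± 0.07 (limma adjusted p = 0.025), a call that ended without xrn1 replicate 1 or dbp2 replicate 2 (limma adjusted p = 0.15 in each case). Relative to the median gene FIT2 in xrn1 cells stood at 0.374 of its dbp2 value (log2 -1.42 ± 0.08, limma adjusted p = 4.2e-07). On the deposited scale its log2 difference was -0.22. HMX1 and FET3 were lower in xrn1 cells on the relative scale alone, with log2 differences of -0.62 ± 0.11 (limma adjusted p = 0.00077) and -0.31 ± 0.06 (limma adjusted p = 0.0018). On the deposited scale they were higher in xrn1 cells, by 0.57 and 0.91. Scaling on the sum turned the FET3 difference to 0.20 and ended the HMX1 call. No difference was called for FTR1 (95% interval of the log2 difference -0.05 to 0.11), FIT1 (-0.25 to 0.24) or ARN1 (-0.02 to 0.26). These intervals hold for the median-gene scaling alone. With scaling on the sum FTR1, FIT1 and ARN1 were all called higher in xrn1 than in dbp2 cells, by 0.54, 0.49 and 0.63 on the log2 scale (limma adjusted p = 1.0e-06, 0.0017 and 1.2e-05). With scaling on the median log ratio FTR1 and ARN1 were called, at 0.16 and 0.26 (limma adjusted p = 0.0032 and 0.0043). ARN1 was also called without dbp2 replicate 1 (limma adjusted p = 0.038) and with limma-voom (limma adjusted p = 0.026).

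The effect of Mtr4 depletion was set against those of the deletions as a difference of log2 changes, each mutant over its own wild type. Relative to the median gene, 3 members had a higher and 4 a lower change in tet-MTR4-Dox than in xrn1 cells (background 47.2% and 29.0%). On this scale FIT2 differed by 1.32 ± 0.11 (SE) and HMX1 by 1.16 ± 0.15, higher with Mtr4 depletion, with limma adjusted p of 4.9e-06 and 0.00011. On the deposited scale these 2 differences were 0.11 and 0.012, and neither was called. In deposited units 0 members had a higher and 8 a lower change, where 278 of 5613 protein-coding genes were higher and 4753 lower. Relative to the median gene MRS4 differed by -1.71 ± 0.07, FIT3 by -1.30 ± 0.06, SIT1 by -1.12 ± 0.10 and FRE2 by -1.04 ± 0.10. Their limma adjusted p were 7.6e-08, 1.9e-07, 7.3e-06 and 1.5e-05. Against the dbp2 effect 4 members had a higher and 2 a lower change relative to the median gene (background 34.1% and 27.7%). The deposited scale also gave 4 and 2, where 1675 of 5613 protein-coding genes were higher and 1346 lower. Scaling on the median of all features instead gave 1 and 8 here, and 2 and 7 against the xrn1 effect. The relative change of FRE2 differed by 1.38 ± 0.10 (limma adjusted p = 4.5e-06), that of SIT1 by -0.91 ± 0.10 (limma adjusted p = 4.1e-05) and that of FIT3 by -0.63 ± 0.06 (limma adjusted p = 2.0e-05). These contrasts cross 2 strain backgrounds and the use of doxycycline.

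The wild types also differed in some members. On the deposited scale 1 member was higher and 7 were lower in WT-Dox than in WT (background 13.0% and 41.2%), and on the relative scale 3 were higher and 4 lower (27.5% and 29.2%). The count of 7 was between 4 and 6 when single libraries were left out, and scaling on the median of all features gave 3 higher and 3 lower. Of the 7, FET3 lost its call without either WT library or WT-Dox replicate 2, FTR1 without WT replicate 1 or WT-Dox replicate 2, and FIT1 without either WT library or WT-Dox replicate 1 (limma adjusted p between 0.054 and 0.24). HMX1 was 3.46-fold higher in WT-Dox on the deposited scale and 3.94-fold higher on the relative scale (log2 1.98 ± 0.11, limma adjusted p = 2.4e-06). Beside it, the mutants changed HMX1 by 0.53 to 1.69 on the same scale. FIT2, FIT3 and MRS4 were lower in WT-Dox, with relative log2 differences of -0.48 ± 0.08, -0.44 ± 0.04 and -0.25 ± 0.05 (limma adjusted p = 0.0013, 6.8e-05 and 0.0026). For FRE2, ARN1 and SIT1 the relative difference was 0.23, 0.22 and -0.25, calls that did not hold when single libraries were left out: WT replicate 1 or WT-Dox replicate 2 for FRE2, either WT library or WT-Dox replicate 2 for ARN1, and WT replicate 2 or either WT-Dox library for SIT1 (limma adjusted p between 0.052 and 0.14). FET3, FTR1 and FIT1 did not pass the test on the relative scale (limma adjusted p = 0.32, 0.11 and 0.25), but FIT1 did without WT-Dox replicate 2 (log2 -0.31, limma adjusted p = 0.036), and FTR1 did with scaling on the sum (log2 -0.14, limma adjusted p = 0.013). Strain background and doxycycline cannot be told apart in this comparison.

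Other known targets of Aft1 and Aft2 were called in both directions as well. Of 17 such genes 15 were tested, and FRE5 and LSO1 fell below the filter on low densities. In deposited units 15 were called higher and 0 lower in xrn1 cells, 12 and 2 in dbp2 cells, and 11 and 1 in tet-MTR4-Dox cells. On the relative scale 8 were higher and 6 lower in xrn1 cells, 2 and 11 in dbp2 cells, and 3 and 9 in tet-MTR4-Dox cells, with medians of 0.18, -0.32 and -0.35 on the log2 scale. Beside these counts stand the shares of all protein-coding genes called higher and lower, 34.2% and 48.3% in xrn1, 37.9% and 42.1% in dbp2, and 39.6% and 40.9% in tet-MTR4-Dox cells. Under all 4 scalings 7 were higher and 2 lower in xrn1 cells, 2 and 2 in dbp2 cells, and 1 and 4 in tet-MTR4-Dox cells, so most of the calls in dbp2 and tet-MTR4-Dox cells depend on the scaling. The named changes that follow are relative log2 changes called under all 4 scalings. In xrn1 cells the reductase gene FRE3 rose by 1.70 and the enterobactin transporter gene ENB1 by 1.02, while the reductase gene FRE4 fell by 1.21 and the copper chaperone gene ATX1 by 1.18. The mean deposited densities of FRE4 and ATX1 were higher there, at 0.0386 and 2.15 against 0.0265 and 1.16 in WT. In dbp2 cells ENB1 fell by 1.51 and SMF3, a vacuolar metal transporter, fell by 1.32, while FRE3 rose by 0.47. In tet-MTR4-Dox cells FRE1, the main surface reductase, fell by 2.01, FRE4 by 0.87 and FET5, a vacuolar relative of FET3, by 0.72. The mean deposited densities of FRE4 and FET5 were 0.147 and 0.791 there against 0.152 and 0.726 in WT-Dox. TIS11, also called CTH2, which binds mRNAs of iron-using proteins and promotes their decay when iron is short, rose by 1.38 in tet-MTR4-Dox cells and by 0.80 in xrn1 cells. In dbp2 cells its relative change was -0.65, and -0.18 with scaling on the sum, where it was not called.

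**Figure D4:**
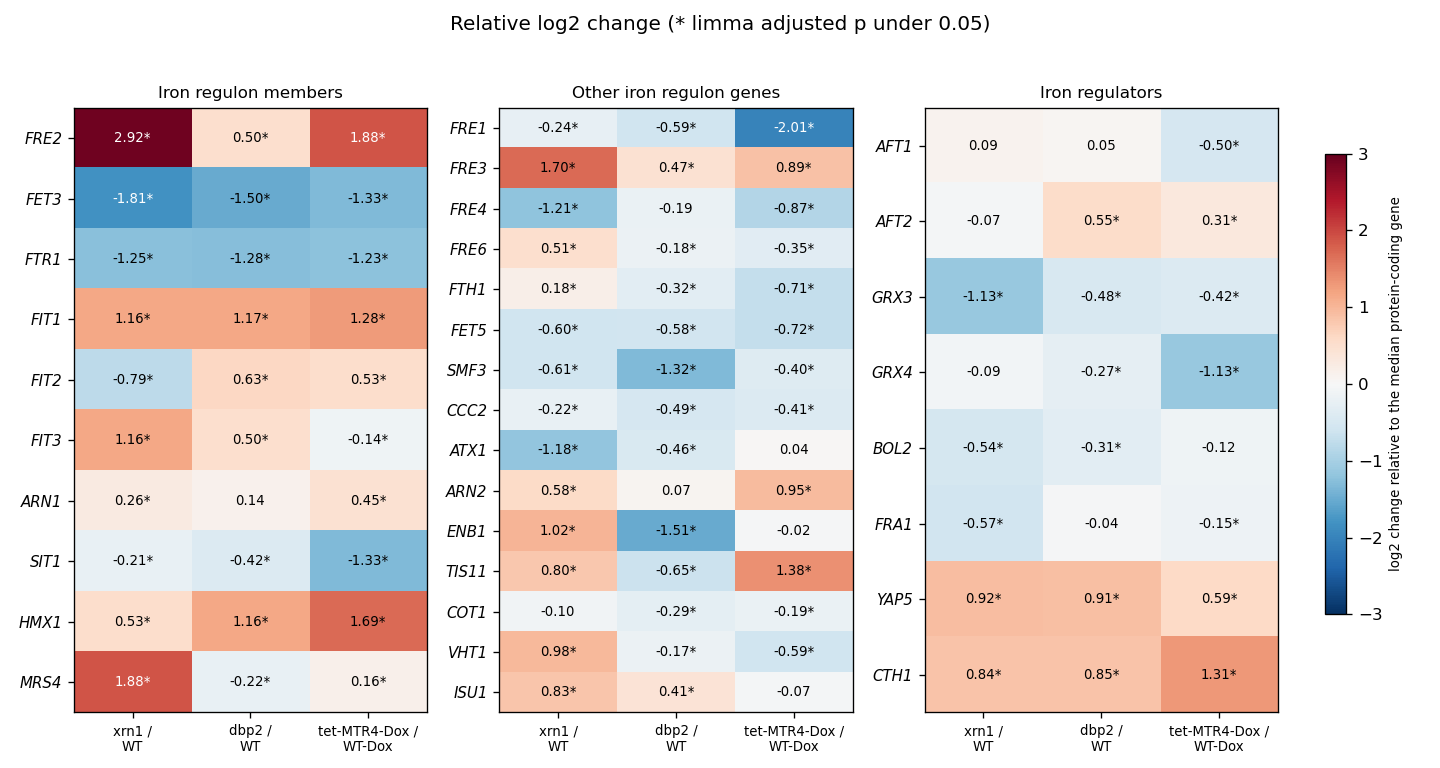
Log2 change relative to the median protein-coding gene in xrn1 against WT, dbp2 against WT and tet-MTR4-Dox against WT-Dox for the 10 genes, for 15 other iron regulon genes and for 8 regulators; an asterisk marks a limma adjusted p under 0.05. Under the scaling shown FRE2 and FRE3 are above 0 in all 3 columns and FET3, FTR1 and FET5 below 0; many paler cells turn or lose their call under another scaling, among them FRE3 in tet-MTR4-Dox cells and FET5 in xrn1 and dbp2 cells.

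Of 8 iron regulators, not all of which act on the iron regulon, AFT2, GRX3, GRX4, YAP5 and CTH1 were called under all 4 scalings in at least 1 mutant. AFT1, the main activator, did not pass the test on the relative scale in xrn1 or dbp2 cells, with values of 0.09 and 0.05. These values depend on the scaling too. They were 1.09 and 0.54 with scaling on the sum, and -0.14 and -0.20 on the median of all features. In deposited units AFT1 was called higher in both mutants, as were all 8 regulators. The relative value of AFT1 in tet-MTR4-Dox cells was -0.50, a call that depends on the scaling. AFT2 was 0.55 in dbp2 cells under the median-gene scaling and was called higher under all 4. On the relative scale GRX3, a glutaredoxin that inhibits Aft1, fell by 1.13 in xrn1 cells, and its partner GRX4 fell by 1.13 in tet-MTR4-Dox cells, both under all 4 scalings. The mean deposited density of GRX3 was higher in xrn1 cells, at 3.05 against 1.59 in WT. That of GRX4 was 0.527 in tet-MTR4-Dox cells against 0.644 in WT-Dox. CTH1, a relative of TIS11, rose under all 4 in every mutant, by 0.84 in xrn1, 0.85 in dbp2 and 1.31 in tet-MTR4-Dox cells. YAP5, an activator used when iron is plentiful, rose by 0.92 in xrn1 and 0.91 in dbp2 cells under all 4. Of the 8 regulators 2 were higher and 3 lower on the relative scale in xrn1 cells, 3 and 3 in dbp2 cells, and 3 and 4 in tet-MTR4-Dox cells, and 5, 5 and 6 of the 8 depended on the scaling. In deposited units 8 were higher and 0 lower in xrn1 cells, 8 and 0 in dbp2 cells, and 7 and 1 in tet-MTR4-Dox cells. The deposited shares of all protein-coding genes were 98.3% and 0.356%, 83.9% and 7.86%, and 86.6% and 5.47%.

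The other lists are read against the same background shares. Of 14 genes of iron-sulfur cluster assembly, 6 were higher and 7 lower on the relative scale in xrn1 cells, 7 and 5 in dbp2 cells, and 3 and 7 in tet-MTR4-Dox cells. The calls or their absence depended on the scaling for 9 of the 14 in xrn1, 8 in dbp2 and 11 in tet-MTR4-Dox cells. ISU2, a scaffold protein, rose by 1.46 in dbp2 cells, and NFS1, the cysteine desulfurase, fell by 0.83 in tet-MTR4-Dox cells. The mean deposited density of NFS1 was 1.27 there against 1.25 in WT-Dox. Of 13 iron-using enzymes, 3 were higher and 6 lower in xrn1 cells, 6 and 6 in dbp2 cells, and 2 and 9 in tet-MTR4-Dox cells, and 8, 4 and 10 of the 13 depended on the scaling. The glutamate synthase gene GLT1 fell by 1.82 and SDH1, a succinate dehydrogenase subunit, rose by 1.24 in xrn1 cells. The mean deposited density of GLT1 was higher there, at 3.06 against 2.57 in WT. The aconitase gene ACO1 fell by 1.10 in dbp2 cells and by 1.42 in tet-MTR4-Dox cells, and SDH1 fell by 1.09 in tet-MTR4-Dox cells. CTA1, the peroxisomal catalase, rose by 1.14 in dbp2 cells and by 1.88 in tet-MTR4-Dox cells, the largest called change of its list there. The named changes of this paragraph are relative log2 changes that held under all 4 scalings. In deposited units 14 iron-sulfur genes were higher and 0 lower in xrn1 cells, 12 and 0 in dbp2 cells, and 11 and 0 in tet-MTR4-Dox cells. For the iron-using enzymes these counts were 13 and 0, 8 and 5, and 11 and 2. They are read against the deposited shares given above. On the relative scale CCC1, the vacuolar iron importer, was called in tet-MTR4-Dox cells alone (log2 change -0.48), and that call depends on the scaling. In deposited units CCC1 was called higher in each mutant, by 1.91 (log2) in xrn1, 0.72 in dbp2 and 0.37 in tet-MTR4-Dox cells. Of 4 copper genes 2 were higher and 0 lower on the relative scale in xrn1 cells, 3 and 1 in dbp2 cells, and 2 and 2 in tet-MTR4-Dox cells. On that scale the copper transporter gene CTR1 fell by 1.82 in tet-MTR4-Dox cells. Of the 4 copper genes, 2, 1 and 2 depended on the scaling. In deposited units the copper counts were 4 and 0, 4 and 0, and 2 and 1. Of 5 zinc genes 4 were higher and 1 lower on the relative scale in xrn1 cells, 1 and 3 in dbp2 cells, and 1 and 3 in tet-MTR4-Dox cells. Of the 5 zinc genes, 2, 4 and 4 depended on the scaling. In deposited units the zinc counts were 5 and 0, 4 and 0, and 4 and 0.

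Members of low level had the higher relative changes. Spearman's rho between the relative change and the level, read in the wild type of the other background so that level and change share no library, was -0.67 in xrn1, -0.90 in dbp2 and -0.93 in tet-MTR4-Dox cells over the 10 members. Over all 5613 protein-coding genes it was -0.60, -0.54 and -0.60. Genes of low level tended to have the higher relative change throughout the transcriptome, and the members did so too. The members had no common profile over the 10 libraries: the correlation of each with the median profile of all 10 ran from -0.61 for FIT2 and -0.60 for FET3 to 0.88 for FRE2 and 0.92 for MRS4 (Pearson's r, relative log2 density). The 5 genes outside the list whose profile was most like that median were MDM36 (r = 0.976), AAD4 (0.970), MDM31 (0.965), SAG1 (0.964) and IDS2 (0.962), each over the 10 libraries. They were picked as the highest values among the protein-coding genes, and the median itself ran only from -0.28 to 0.18 (log2). Since the members shared no profile, this likeness is to the median alone.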

How the data were processed

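RNA sequencing libraries of 10 samples (5 groups, 2 biological replicates each) gave 1 deposited table with the authors' normalized densities (a signal per base) of 10891 features; 5 further columns equal the means of the replicate pairs and were not used. Genome R64 and the tools featureCounts 2.0.0, HISAT2 2.2.0, DESeq2 and Trim Galore appear in the submitters' processing notes, which assign them no roles; how the authors scaled the deposited signal is not given in the sources used here. From the values, densities are whole reads per base of a row, times 1 factor for each library (100% of features above 0 at a tolerance of 0.02), which gave 16.0 M to 33.5 M reads per library. The factors ran nearly inverse to the number of reads from ERCC spike-ins, which are added control RNAs. The deposited scale is thus close to a scaling on these RNAs. Their share of all reads was lowest for xrn1 cells (1.36% and 1.35%) and highest for WT-Dox cells (3.03% and 3.14%). How much of them was added per cell is not known. Whether the factors put libraries on a scale per cell is therefore not known, so that differences on the deposited scale are differences in the authors' units.

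Features with a mean density of at least 0.0344, the 10th percentile, were kept (9666 of 10740 above 0, all 10 members among them). After 0.00626 (the 5th percentile) was added and log2 taken, densities were fitted with limma 3.58.1 in R 4.3.3 (lmFit, eBayes with a trend) over all 10 libraries with a coefficient per group and 5 residual degrees of freedom; fold changes are on that scale and understate the changes of low genes. Adjusted p-values are Benjamini-Hochberg over all kept features, 2-sided, and calls use 0.05. The relative scale divides each library by the median of its 5613 kept protein-coding densities before the same fit. The code was tested on simulated data. All 10 members are named in every comparison, as are the 3 targeted genes; from other lists at most 4 genes a list and comparison are named among those with the largest called changes, except that every other iron regulon gene and regulator may be. The members and all lists were chosen with earlier results of these data known. Motifs, positions and coding lengths come from RefSeq on R64, and identity between coding sequences from BLAST 2.17.0. No label says that a replicate number is shared between groups. The differences between replicates 1 and 2 correlated at -0.068 for xrn1 and WT, 0.0062 for dbp2 and WT, and 0.018 for tet-MTR4-Dox and WT-Dox. Over all pairs of groups the values ran from -0.21 (xrn1 and tet-MTR4-Dox) to 0.063 (xrn1 and WT-Dox). These values show no strong shared effect of the number, but they cannot tell whether samples were handled in pairs. The alternatives tried were other pseudocounts, filters and scalings, no trend, limma-voom on the recovered reads, a replicate block, fits of only the groups compared, and leaving out each library in turn.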

Additional observations from a re-analysis of the deposited data

How the results depend on the processing

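Of the values of single genes under alternatives other than scaling, 1178 kept their direction and call, 38 lost the call, 4 gained it and 4 turned; under other scalings these numbers were 172, 10, 9 and 26. The 26 follow from the scalings, which add nearly the same constant to every gene of a comparison. Scaling the deposited densities on the median of all features gave 5 genes higher and 4 lower in xrn1, 5 and 4 in dbp2, 3 and 7 in tet-MTR4-Dox, and 3 and 3 in WT-Dox, with 4 higher and 3 lower in xrn1 against dbp2. It turned FET3 to -2.05, FTR1 to -1.49, FIT2 to -1.02 and SIT1 to -0.45 (log2) in xrn1. In dbp2 it turned ARN1 to -0.11, SIT1 to -0.67 and MRS4 to -0.46. In tet-MTR4-Dox it turned FIT2 to -0.32, FIT3 to -0.98, ARN1 to -0.40 and MRS4 to -0.69. FTR1 turned to 0.00045 in WT-Dox against WT. The FIT1 difference in xrn1 against dbp2 turned to 0.0098 from its relative value of -0.0026, while its deposited value was 1.19. The same scaling gave 2 members with a higher and 7 with a lower change in tet-MTR4-Dox than in xrn1, and 1 and 8 against dbp2. Scaling on the sum of protein-coding densities left 2 lower in xrn1 and 2 in dbp2, gave 1 higher in WT-Dox, and 8 higher and 1 lower in xrn1 against dbp2. It turned FIT2 to 0.19 and SIT1 to 0.79 in xrn1, SIT1 to 0.072 and MRS4 to 0.27 in dbp2, FIT3 to 0.41 in tet-MTR4-Dox, and FET3 to 0.20 and FIT1 to 0.49 in xrn1 against dbp2. Scaling on the median log ratio, chosen after seeing the data, gave 0.13 for that FIT1 difference and limma-voom 0.00063; leaving out 1 library gave -0.023 to 0.018 for it and -0.020 to 0.075 for FTR1, beside -0.00 and 0.03 as reported. Fitting only the groups compared left 1 member higher on the relative scale in WT-Dox, and leaving out 1 library left 1 to 3 higher there, 4 to 6 lower on the deposited scale, and 0 to 1 lower in xrn1 against dbp2, where FIT2 lost its call without xrn1 replicate 2 or dbp2 replicate 1. With a replicate block, FIT1 in WT-Dox against WT lost its call on the deposited scale (log2 -0.28, limma adjusted p = 0.051). No other call of a member changed, and no label says that the numbers pair the samples. Where a library was left out, the lone one was assumed to vary like the others. With 2 libraries a group, few reads limit the precision for FIT1 (51 to 96 per wild-type library) and for HMX1 in WT (111 and 116). The unknown row bounds limit what a density stands for, most of all for FRE2, whose row exceeds its coding sequence by 2672 bases. This excess was 781 for ARN1, 607 for HMX1, 446 for MRS4 and 435 for FIT2. It was 258 for FIT3, 194 for FTR1, 186 for FET3, 90 for SIT1 and 0 for FIT1, where the median over all protein-coding rows is 188.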
